A study of Marmota monax with 203 samples.

Results

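The nuclear genes that encode the subunits of the mitochondrial respiratory chain and ATP synthase were followed in liver biopsies of eastern woodchucks (Marmota monax) with chronic woodchuck hepatitis virus (WHV) infection, treated with placebo or with recombinant IFN-α of the woodchuck (wIFN-α). Members were chosen by symbol: those starting with NDUFA, NDUFB, NDUFC, NDUFS or NDUFV followed by a digit, SDHA to SDHD, those starting with UQCR, the COX4I, COX5, COX6, COX7 and COX8 genes, and those starting with ATP5. This gave 87 of the 17587 genes in the files, of which 39 were assigned to complex I, 4 to complex II, 10 to complex III, 15 to complex IV and 19 to complex V (ATP synthase). All animals were born in captivity and infected as neonates, at 3 days of age, with the WHV strain WHV7-11, and were adult carriers when dosing began. Both groups were dosed subcutaneously 3 times per week, the placebo group with vehicle and the wIFN-α group with 20 μg per animal for 7 weeks and then with 100 μg per animal for 8 weeks. Biopsies of 8 weeks were compared: week -3 before treatment, weeks 0 and 3 at the low dose, weeks 7, 11 and 15 at the high dose, all 5 of these taken 6 hours after a dose, and weeks 19 and 23 after treatment had ended. There were 12, 12, 12, 12, 10, 9, 5 and 9 placebo biopsies and 11, 11, 9, 9, 8, 8, 6 and 6 wIFN-α biopsies at these weeks, each from a different animal. Animals of both sexes were used. Because each animal received the low dose first, an effect of the dose and one of time under treatment cannot be told apart.

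The respiratory chain passes electrons from NADH (complex I) and succinate (complex II, which is also an enzyme of the citric acid cycle) through complex III and cytochrome c to oxygen at complex IV, and the proton gradient that complexes I, III and IV build drives ATP synthesis at complex V. Hepatocytes are rich in mitochondria and use this ATP for gluconeogenesis, urea synthesis and protein secretion. Several subunits have isoforms: COX6A2 and COX7A1 are the forms of heart and skeletal muscle, COX6B2 is best known as a testis form, COX4I2 and NDUFA4L2 are known as hypoxia-linked relatives of COX4I1 and NDUFA4, and ATP5G1, ATP5G2 and ATP5G3 encode the same mature ring subunit c. A few symbols that met the rule name proteins that are not core subunits, such as ATP5S and ATP5SL, or a pseudogene (UQCRBP1), and NDUFA4 has since been placed with complex IV. The subunits that mitochondrial DNA encodes were not analysed here, so the results concern the nuclear part of the chain only.

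In the 149 biopsies compared, 12072840 to 84805845 reads (median 28754894) lay on genes, and the members together held 0.415% to 1.25% of them (median 0.587%). Of the members, 84 were detected in every one of the 203 sequencing runs, the exceptions being COX4I2, COX6A2 and COX7A1. The liver label was checked with 12 hepatocyte genes such as ALB and APOA1, which held 4.42% to 20.9% of the reads (median 10.9%) in all but 2 biopsies. Those 2, both of week -3 (placebo animal 1016 and wIFN-α animal 1018), had 0.0423% and 0.0309% of their reads on hepatocyte genes, and 15.7% and 15.6% on 24 skeletal muscle genes such as ACTA1 and MYH7. In all, 22 of the 149 biopsies had over 1% of reads on the muscle genes, and at week 3 these were 6 of 12 in the placebo group and 2 of 9 in the wIFN-α group. The 2 runs of placebo animal 1008 at week 15 carried the same barcode but differed by a chi-square of 131 per degree of freedom. Over the 40 pairs of runs of 1 biopsy, the next largest was 29.9, in a pair with different barcodes, and the median was 1.78. The next largest pair with the same barcode gave 2.47. Counts of called members that rest on these libraries are given with and without them. The exception is week -3, where the count without the 2 biopsies that lacked hepatocyte genes is not given here. Without placebo animal 1008, 2 of the genes named below as called at week 15 were no longer called, PPARGC1A (log2 fold change 0.49) and SUCLG2 (0.24), while ATP5A1, ATP5G3, ATP5G2 and UQCRQ were at 0.22, 0.29, -0.30 and -0.45. In bulk tissue, fewer cells of a type and less RNA per cell cannot be told apart.

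Levels are given as normalised CPM, that is, reads of a gene per 1000000 reads on all genes after TMM scaling of the libraries. Compared per kilobase of the contig length that the deposited counts and RPKM values imply, the pre-treatment placebo livers had the highest median levels for the catalytic subunit ATP5B (293 CPM per kb) and its partner ATP5A1 (161 CPM per kb), with COX4I1 (207), COX6B1 (143) and COX6A1 (134) between or just below them. The ranges over the 12 placebo biopsies of these genes overlapped, from 221 to 907 CPM per kb for ATP5B and from 84.2 to 428 for COX4I1. The order of the genes within single biopsies was not compared. Among the 12 is the biopsy of animal 1016 that lacked hepatocyte genes. The lowest were NDUFA4L2 (3.15), UQCRB (2.70), COX6A2 (0.799), COX4I2 (0.605) and COX7A1 (0.310). The implied contig lengths, such as 9935 bases for UQCRB, can exceed the coding part of a gene by far, and this lowers a value per kilobase. By complex, the median over members was 19.7 CPM per kb for complex I, 66.8 for complex II, 51.7 for complex III, 24.2 for complex IV and 36.4 for complex V. The 4 SDH genes lay close together, at 98.1 for SDHC, 79.8 for SDHD, 53.8 for SDHB and 53.1 for SDHA.

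The question put to each week was which respiratory chain genes differed between wIFN-α and time-matched placebo livers, tested in edgeR by quasi-likelihood, with p-values adjusted by Benjamini-Hochberg over all genes tested (called at an adjusted p under 0.05). Few did, and nearly all by little. At week -3, before treatment, 0 of 87 members and 0% of the 14963 genes tested were called, and DESeq2 called 0 members. At an unadjusted p under 0.05 were 0 members and 130 of all genes. The 2 biopsies that lacked hepatocyte genes, 1 in each group, were part of this comparison. The median SE of the members was 0.19 there, and 0.11, 0.12, 0.07, 0.11 and 0.10 at weeks 0, 3, 7, 11 and 15. At week 0, 3 members of 84 were higher and 1 was lower in wIFN-α livers, where 18.4% of all 14700 genes tested were called higher and 16.2% lower. At week 3, 1 of 87 was higher (11.8% of all genes) and 13 were lower (7.6% of all genes). At week 7, 4 of 84 were higher (23.6% of all genes) and 8 lower (23%). At week 11, 3 of 86 were higher (20.2%) and 2 lower (17.2%), and at week 15, 4 of 85 were higher (22.3%) and 5 lower (19.2%). The members' share was therefore below that of all genes in both directions at weeks 0, 7, 11 and 15, whereas at week 3 the share called lower was above it. The latter did not hold with each animal as a replicate block (5 of 87 lower, where 6.07% of all genes were) or with the sequencing lane as a covariate (0 of 87, where 3.68% were), and held with the block once the 2 biopsies without hepatocyte genes were left out (22 of 87, where 8.09% were). At week 3 the lanes were uneven between the groups, so the lane fit does not decide this. Placebo animals 1001, 1011, 1015, 1017 and 1024 were in lane 4 with no wIFN-α animal. Alone in lane 7 was wIFN-α animal 1018. DESeq2 called 4, 20, 14, 5 and 11 members at weeks 0, 3, 7, 11 and 15. Of these, 3, 2, 4, 3 and 4 were higher, where 19.24%, 13.13%, 23.88%, 20.63% and 22.2% of all genes were. The lower ones were 1, 18, 10, 2 and 7, where 17.08%, 10.73%, 24.37%, 19.55% and 22.71% of all genes were lower. The members not tested at a week were among COX4I2, COX6A2 and COX7A1, which were too low for the filter there.

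**Figure D1:**
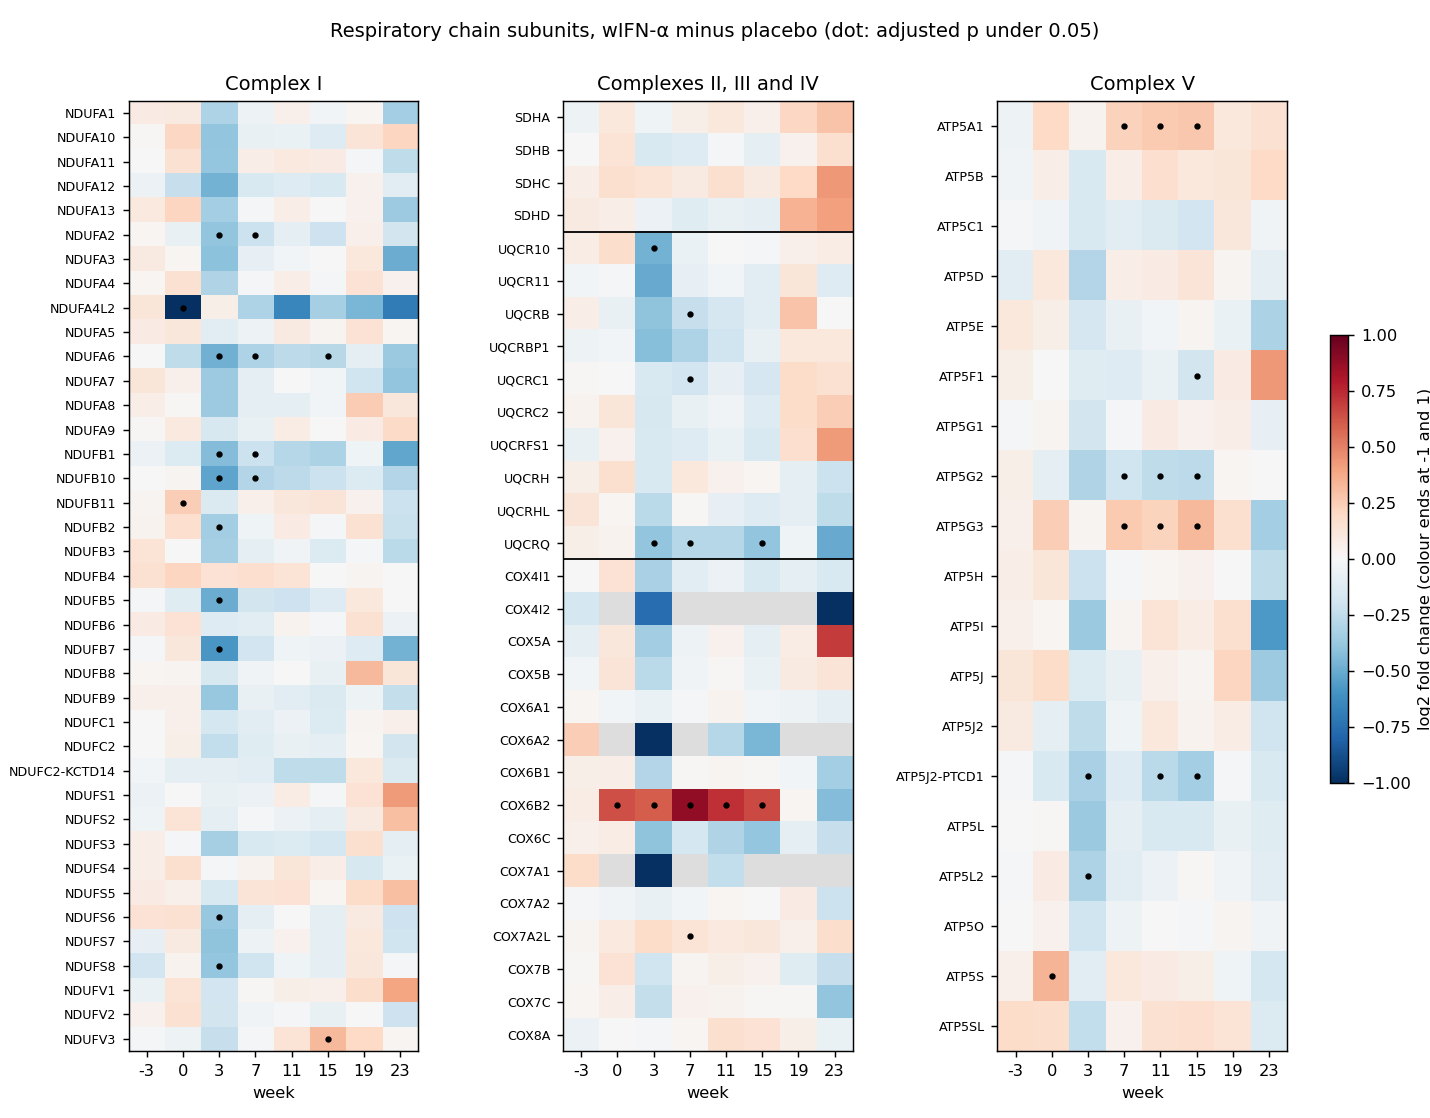
Log2 fold change (wIFN-α minus placebo) of each of the 87 members (one line each, grouped by complex) at each week on the x axis, coloured from blue (lower) to red (higher) with the colours ending at -1 and 1. Dots mark an adjusted p under 0.05 and grey marks weeks in which a gene was too low to be tested. COX6B2 is the one member with a dot at all 5 treatment weeks, and 13 of the 14 dots of week 3 are on lower members.

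The changes were also small. At weeks 0, 3, 7, 11 and 15, 97.6%, 94.3%, 98.8%, 97.7% and 98.8% of the members tested had an estimated change within 1.5-fold, compared with 77.3%, 80.9%, 75.8%, 75.5% and 73.8% of all genes. With a fold change over 1.5 required as well, the calls were COX6B2 (higher) and NDUFA4L2 (lower) at week 0, where 18.5% of all genes passed, COX6B2 and NDUFB7 (lower) at week 3 (10.8% of all genes), and COX6B2 alone at week 7 (21.6%), week 11 (20.5%) and week 15 (22.3%). The median log2 fold change over the members was 0.07, -0.25, -0.06, -0.003 and -0.03 at the 5 weeks, and -0.008, -0.04, -0.03, -0.03 and -0.01 over all genes. Over the 5 treatment weeks, 25 members were called at least once, 7 of them higher and 18 lower, none in both directions, and 62 were never called. The 7 called in at least 3 weeks in 1 direction were COX6B2, ATP5A1 and ATP5G3 (higher) and ATP5G2, ATP5J2-PTCD1, NDUFA6 and UQCRQ (lower).

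**Figure D2:**
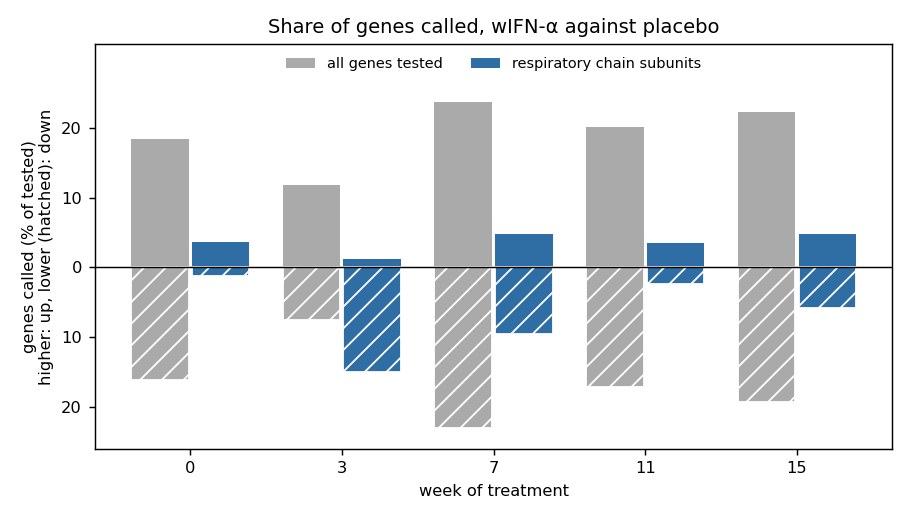
Genes called at an adjusted p under 0.05, as a percentage of those tested (y axis, higher above 0 and lower, hatched, below 0), at each treatment week (x axis) for all genes (grey) and for the respiratory chain members (blue). The blue bars are shorter than the grey ones except for the lower members of week 3, where 13 of 87 were called.

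These counts depended on how the animals and libraries entered the fit. Sampled repeatedly, each animal could also be taken as a replicate block in a fit of all weeks, which sets each effect against that at week -3. With the replicate block, 1 member was higher and 1 lower at week 0 (13.7% and 11.8% of all genes), 1 and 5 at week 3 (9.6% and 6.07%), 1 and 0 at week 7 (14.5% and 10.6%), 1 and 1 at week 11 (14.2% and 9.69%), and 2 and 2 at week 15 (14.98% and 11.6%). At week 3 this count turned on the 2 biopsies of week -3 that lacked hepatocyte genes, since without them the replicate block gave 1 higher and 22 lower (10.47% and 8.09% of all genes). With the sequencing lane as a covariate, an alternative added after seeing the data like the one before it, the counts were 1 and 0 at week 0 (15.96% and 13.9% of all genes), 1 and 0 at week 3 (7.74% and 3.68%), 3 and 1 at week 7 (19.5% and 16.1%), 2 and 1 at week 11 (18.8% and 16.4%), and 2 and 4 at week 15 (18.2% and 13.95%). The lane fit of week 3 is limited by the uneven lanes named above. The lower members of week 3 also moved with the muscle libraries: without the biopsies over 1% of reads on muscle genes, 1 member was higher and 4 were lower, the median log2 fold change was -0.10 in place of -0.25, and 3.57% of all genes were called lower. With all biopsies, cytosolic ribosomal protein genes, a list added after seeing the data, moved in the same direction at week 3 (median -0.27). Of these 84 genes 10 were lower and 0 higher (7.6% and 11.8% of all genes). At weeks 7, 11 and 15, 32 of 85, 32 of 86 and 23 of 86 were lower (23%, 17.2% and 19.2% of all genes). Of the members, 8 of 84, 2 of 86 and 5 of 85 were lower at those weeks. At week 0, without wIFN-α animal 1023, which had 8.55% of reads on muscle genes, 3 members were higher and 4 lower (18.7% and 17.8% of all genes). At week 11, placebo animal 1008 lay far below the others of its group in most members, and without it 3 members were higher and 8 lower (20.8% and 17.4% of all genes). At week 15, without the same animal, 4 of 84 were higher and 15 lower, where 23.2% and 19.8% of all genes were.

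Of the 39 complex I genes, which form the NADH dehydrogenase, 9 were lower at week 3 (7.6% of all genes) and 4 at week 7 (23%), and none was higher at either week. NDUFA6, an accessory subunit of the matrix arm, was the one called at 3 weeks. At week 3 its level was 21.4 CPM at the lowest, 26.1 at the median and 37.4 at the highest in placebo livers, and 17.0, 19.2 and 24.0 in wIFN-α livers, so that 8 of 9 wIFN-α biopsies lay below every placebo biopsy. The log2 fold change was -0.48 ± 0.11 (SE, adjusted p = 0.0045). At week 7 the placebo values were 19.1, 21.8 and 29.5 CPM and the wIFN-α values 14.5, 17.9 and 20.1, with a log2 fold change of -0.31 ± 0.08 (adjusted p = 0.0021), and at week 15 it was -0.27 ± 0.10 (adjusted p = 0.038). The ranges overlapped at week 7, where 9 of 12 placebo biopsies lay above all wIFN-α biopsies. With the replicate block NDUFA6 kept its direction (log2 fold changes of -0.41, -0.26 and -0.24) but was not called at any of these weeks.

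The other complex I genes called lower were called at 1 or 2 weeks only. NDUFA2, NDUFB1 and NDUFB10, small accessory subunits, were lower at weeks 3 and 7, with log2 fold changes of -0.39, -0.44 and -0.53 at week 3 and -0.21, -0.22 and -0.29 at week 7. NDUFB2, NDUFB5, NDUFB7, NDUFS6 and NDUFS8 (the last an iron-sulphur subunit on the electron path) were lower at week 3 alone, between -0.35 for NDUFB2 and -0.59 for NDUFB7. The ranges of the groups overlapped: NDUFB7 was at 23.4, 33.8 and 55.6 CPM (lowest, median, highest) in placebo and 16.8, 22.98 and 29.7 in wIFN-α livers at week 3, with 8 of 12 placebo biopsies above all wIFN-α biopsies. With the replicate block only NDUFS6 of these 8 genes was still called. Without the muscle biopsies NDUFA2, NDUFB5, NDUFB7, NDUFB10 and NDUFS6 were no longer called at week 3 (-0.32, -0.30, -0.41, -0.31 and -0.29). In the other direction, NDUFB11, a membrane arm subunit, was higher at week 0 only (0.24 ± 0.08, adjusted p = 0.019, and 0.21 and not called with the replicate block), and NDUFV3, an accessory subunit of the NADH-binding module, at week 15 only (0.32 ± 0.11, adjusted p = 0.022). NDUFV3 was at 20.0, 25.9 and 34.9 CPM in placebo and 24.3, 32.9 and 40.7 in wIFN-α livers at week 15, with 2 of 8 wIFN-α biopsies above all placebo biopsies. It was not called when wIFN-α animal 1002 or 1013 was left out (0.27 in both cases).

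NDUFA4L2 had the largest decrease of any member at week 0. Its level was 2.02 CPM at the lowest, 3.27 at the median and 16.0 at the highest in placebo livers and 1.52, 2.15 and 3.48 in wIFN-α livers, and 5 of 12 placebo biopsies lay above all wIFN-α biopsies. The log2 fold change was -1.14 ± 0.30 (adjusted p = 0.0051), and -0.62 and no longer called with the sequencing lane as a covariate. The high placebo values recurred at other weeks, up to 12.2, 13.01 and 11.8 CPM at weeks 3, 7 and 11, and a wIFN-α biopsy reached 17.0 CPM at week 3. The log2 fold changes at weeks 3, 7, 11 and 15 were 0.06 ± 0.40, -0.30 ± 0.28, -0.65 ± 0.31 and -0.34 ± 0.25, none called. Its relative NDUFA4 was not called at any week, with log2 fold changes between -0.30 ± 0.16 at week 3 and 0.15 ± 0.14 at week 0.

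None of the 4 complex II genes was called at any of the 8 weeks. SDHA, the flavoprotein that oxidises succinate, had log2 fold changes of 0.11 ± 0.10, -0.05 ± 0.12, 0.06 ± 0.06, 0.11 ± 0.08 and 0.05 ± 0.08 at weeks 0, 3, 7, 11 and 15. At week 15 its placebo biopsies were at 369, 439 and 509.9 CPM (lowest, median, highest) and its wIFN-α biopsies at 373, 448 and 492, and the ranges overlapped almost completely. The iron-sulphur subunit SDHB was between -0.15 ± 0.10 at week 3 and 0.14 ± 0.09 at week 0, and the membrane anchor SDHD between -0.12 ± 0.07 at week 7 and 0.07 ± 0.10 at week 0. The other anchor, SDHC, was above 0 at all 5 treatment weeks, with the largest value 0.16 ± 0.07 at week 11 (adjusted p = 0.077). After treatment SDHC and SDHD were 0.20 ± 0.10 and 0.35 ± 0.13 at week 19 and 0.43 ± 0.22 and 0.41 ± 0.19 at week 23, with adjusted p-values of 0.31 to 0.41. At week 19, 5 of 6 wIFN-α biopsies lay above all 5 placebo biopsies for each of the 2 genes, where edgeR called 0% of all genes and DESeq2 170 genes.

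Of the 10 complex III genes, 2 were lower at week 3 (7.6% of all genes), 3 at week 7 (23%) and 1 at week 15 (19.2%), and none was higher at any week. UQCRQ, a small subunit of the cytochrome bc1 complex, was the one called at 3 weeks. Its level at week 15 was 57.8, 84.2 and 117 CPM in placebo and 49.2, 63.9 and 84.1 in wIFN-α livers, and 5 of 9 placebo biopsies lay above all wIFN-α biopsies. The log2 fold change was -0.39 ± 0.12 at week 3 (adjusted p = 0.021), -0.28 ± 0.08 at week 7 (adjusted p = 0.0053) and -0.39 ± 0.13 at week 15 (adjusted p = 0.020). With the replicate block the changes of weeks 7 and 15 were -0.26 and -0.32 and were not called. UQCR10 was lower at week 3 (-0.48 ± 0.15, adjusted p = 0.033), and UQCRB and the core subunit UQCRC1 at week 7 (-0.23 ± 0.07 and -0.19 ± 0.07, adjusted p = 0.012 and 0.037), all 3 not called with the replicate block (-0.48, -0.27 and -0.21). Without the muscle biopsies UQCRQ and UQCR10 were at -0.38 and -0.30 at week 3 and were not called. UQCRFS1, which carries the Rieske iron-sulphur centre, and the core subunit UQCRC2 were among those never called.

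COX6B2, of complex IV, was the member that differed most clearly. At week -3 its level was 2.53, 9.03 and 10.9 CPM (lowest, median, highest) in placebo and 2.88, 9.47 and 11.7 in wIFN-α livers, with the lowest value of each group in the 2 biopsies that lacked hepatocyte genes. At week 0, 6 hours after the first dose, it was at 6.72, 8.68 and 11.01 CPM in placebo and 10.97, 13.8 and 16.1 in wIFN-α livers, and 10 of 11 wIFN-α biopsies lay above all placebo biopsies. At week 3 the values were 5.81, 8.07 and 10.6 CPM against 8.58, 12.7 and 16.1, with 5 of 9 wIFN-α biopsies above all placebo biopsies. At weeks 7 and 15 the groups did not overlap: placebo livers were at 5.66, 6.78 and 7.57 CPM against 9.86, 11.4 and 14.9 at week 7, and at 4.87, 6.22 and 7.61 against 7.92, 9.86 and 11.9 at week 15. At week 11, 7 of 8 wIFN-α biopsies lay above all placebo biopsies (4.92, 6.30 and 9.22 CPM against 8.99, 10.6 and 14.5). After treatment the ranges coincided, at 5.22 to 6.45 CPM in placebo and 5.28 to 6.65 in wIFN-α livers at week 19.

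The log2 fold change of COX6B2 was 0.64 ± 0.09, 0.60 ± 0.13, 0.89 ± 0.08, 0.73 ± 0.11 and 0.66 ± 0.10 at weeks 0, 3, 7, 11 and 15, with adjusted p-values of 2.6e-06, 0.0014, 8.6e-09, 3.7e-05 and 4.6e-05. It was 0.02 ± 0.11 at week 19 and -0.43 ± 0.25 at week 23, where the highest placebo value was 21.3 CPM (adjusted p = 0.95 and 0.38). These calls held under every alternative run for them, the replicate block and the lane included, and at weeks 0 and 15 also with each animal left out in turn, which was not run at weeks 3 and 7 and at week 11 only for placebo animal 1008. The paralogue COX6B1, the usual form in liver, was not called at any week, with log2 fold changes of 0.07 ± 0.12, -0.30 ± 0.15, 0.01 ± 0.07, 0.03 ± 0.12 and 0.01 ± 0.09 at the same weeks. Reads of such paralogues could be split between them by the mapping.

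**Figure D3:**
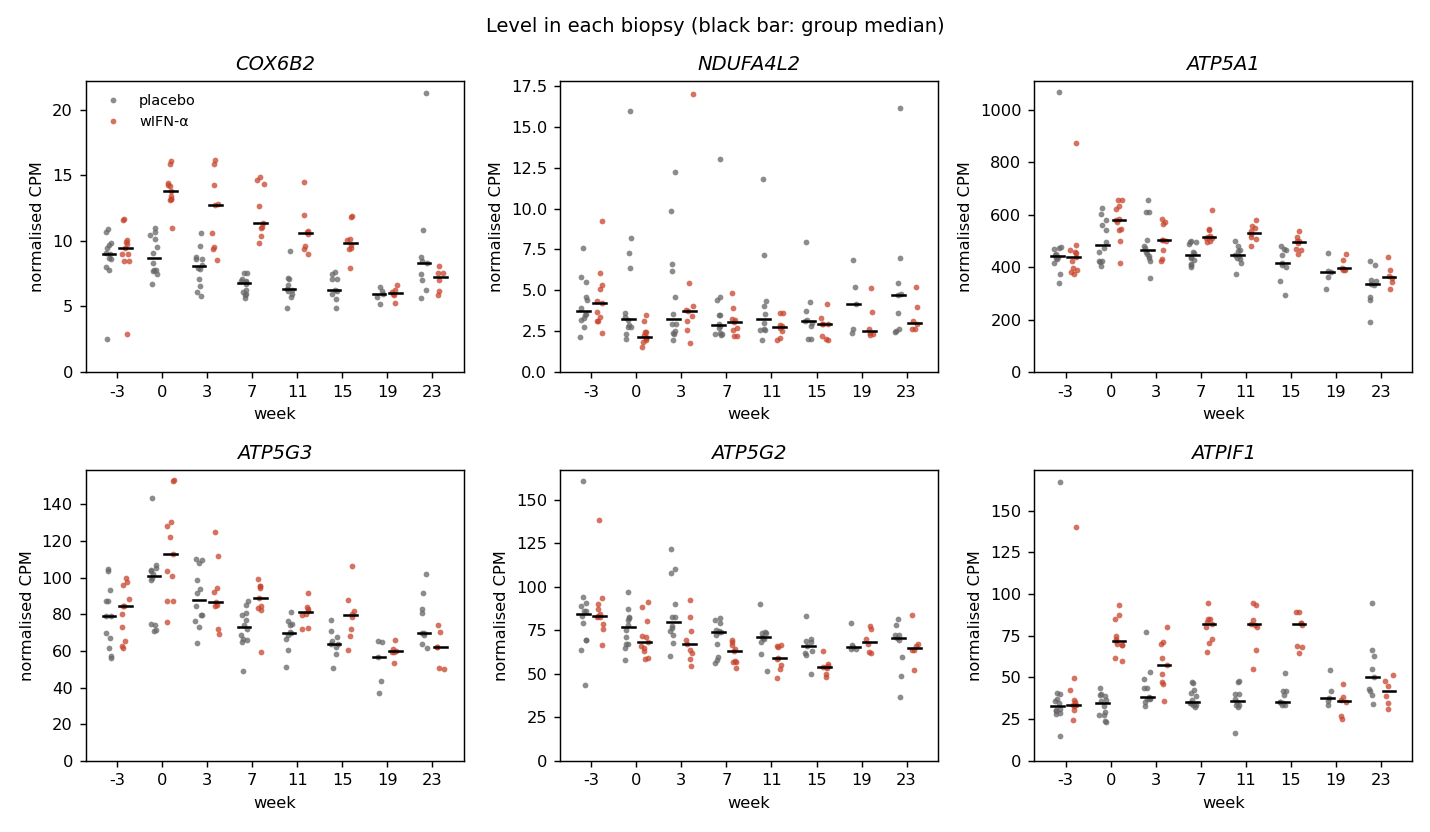
Normalised CPM (y axis, from 0) in each biopsy of the placebo (grey) and wIFN-α (red) groups at each week (x axis) for COX6B2, NDUFA4L2, ATP5A1, ATP5G3, ATP5G2 and ATPIF1, with black bars at the group medians. COX6B2 and ATPIF1 separate at week 15 (ATPIF1 at 33.4 to 52.9 CPM in placebo and 64.7 to 89.5 in wIFN-α livers), whereas the ranges of the ATP synthase subunits overlap.

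The remaining complex IV genes differed little. COX7A2L, known for joining complexes III and IV into supercomplexes, was higher at week 7 (0.14 ± 0.05, adjusted p = 0.030) and at no other week, and was at 0.08 and not called with the replicate block. COX4I1, COX6A1, COX7A2, COX7B and COX8A were never called, and at week 15 their log2 fold changes were -0.15 ± 0.10, -0.03 ± 0.08, -0.002 ± 0.08, 0.04 ± 0.09 and 0.14 ± 0.10.

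The muscle isoforms followed the muscle content of the biopsy. In the 22 biopsies with over 1% of reads on muscle genes, COX6A2 was at 14.04 CPM at the lowest, 23.8 at the median and 244 at the highest, and in the other 127 biopsies at 0, 0.224 and 17.0 CPM. COX7A1 was at 8.68, 18.0 and 190.1 CPM in the first and 0, 0.213 and 13.7 in the second. COX4I2 was at 0.264, 0.589 and 2.09 CPM in the first and 0, 0.278 and 1.04 in the second, so that its ranges overlapped widely. The log2 fold changes at week 3 were -1.66 ± 1.25 for COX6A2, -1.85 ± 1.22 for COX7A1 and -0.76 ± 0.48 for COX4I2, none called.

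**Figure D4:**
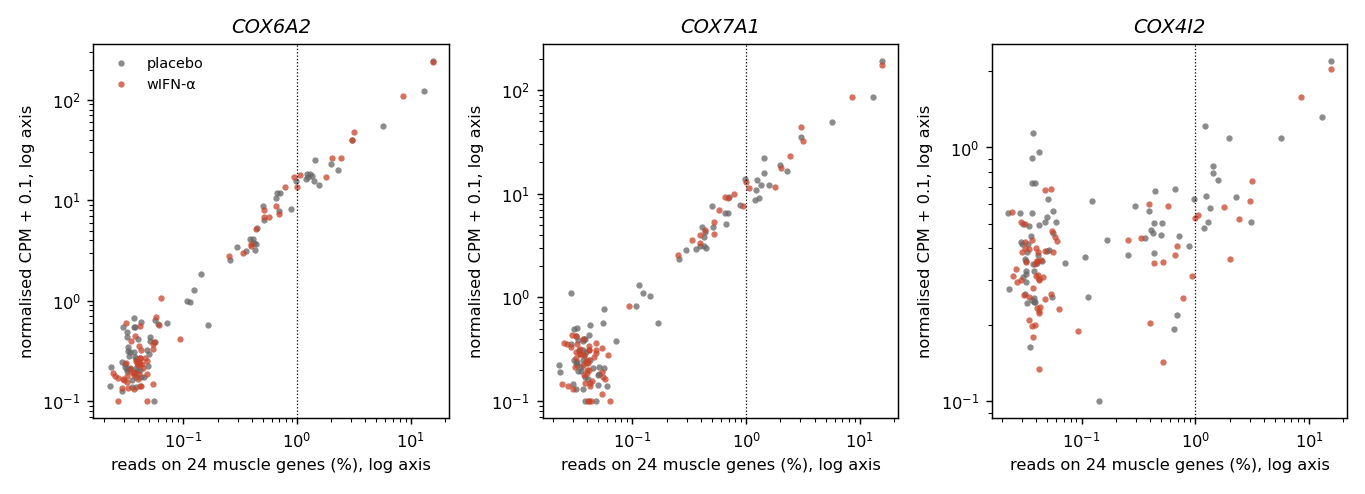
Normalised CPM plus 0.1 (y axis, log scale) of COX6A2, COX7A1 and COX4I2 in each placebo (grey) and wIFN-α (red) biopsy against the percentage of its reads on 24 skeletal muscle genes (x axis, log scale), with a dotted line at 1%. Right of the line COX6A2 is at 14.04 CPM or more and COX7A1 at 8.68 CPM or more.

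Of the 19 complex V genes, 2 were higher at each of weeks 7, 11 and 15 (23.6%, 20.2% and 22.3% of all genes), and 1, 2 and 3 were lower (23%, 17.2% and 19.2%). ATP5A1, the alpha subunit of the catalytic head, was higher at all 3 high dose weeks. At week 7 it was at 399.5 CPM at the lowest, 447 at the median and 501 at the highest in placebo and 496, 514 and 618 in wIFN-α livers, and 7 of 9 wIFN-α biopsies lay above all placebo biopsies. At week 11 the values were 374, 445 and 499.7 CPM against 481, 532 and 582, and at week 15 294, 417 and 479 against 451, 496 and 539.8 CPM. The log2 fold changes were 0.23 ± 0.06, 0.26 ± 0.06 and 0.27 ± 0.09 (adjusted p = 0.0021, 0.0031 and 0.023). At week 0 it was 0.20 ± 0.09 and not called (adjusted p = 0.10). Its partner ATP5B was not called at any week.

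The 3 genes for subunit c of the membrane ring differed from each other in direction. ATP5G3 was higher at weeks 7, 11 and 15, with log2 fold changes of 0.26 ± 0.09, 0.22 ± 0.08 and 0.33 ± 0.10 (adjusted p = 0.025, 0.028 and 0.015). At week 15 it was at 50.5, 64.0 and 76.8 CPM in placebo and 60.3, 79.4 and 106 in wIFN-α livers, with 5 of 8 wIFN-α biopsies above all placebo biopsies. ATP5G2 was lower at the same weeks, by -0.20 ± 0.08, -0.25 ± 0.09 and -0.26 ± 0.08 (adjusted p = 0.033, 0.034 and 0.015). At week 15 it was at 49.8, 66.1 and 83.3 CPM in placebo and 48.2, 53.7 and 63.0 in wIFN-α livers, with 6 of 9 placebo biopsies above all wIFN-α biopsies. ATP5G1 was not called at any week, and was -0.01 ± 0.08, 0.08 ± 0.12 and 0.04 ± 0.12 at weeks 7, 11 and 15. With the replicate block none of the calls of ATP5A1, ATP5G3 and ATP5G2 held, although the estimates were close (0.27, 0.31 and 0.31 for ATP5A1, 0.23, 0.23 and 0.32 for ATP5G3, and -0.22, -0.22 and -0.23 for ATP5G2). Over all alternatives at weeks 7, 11 and 15, the calls of ATP5G3 were lost in 2 of 10, 5 of 11 and 3 of 27. Those of ATP5G2 were lost in 3 of 10, 3 of 11 and 3 of 27, and those of ATP5A1 in 2 of 10, 1 of 11 and 3 of 27.

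ATP5J2-PTCD1, the symbol of a read-through transcript of the small subunit ATP5J2 and its neighbour PTCD1, was lower at weeks 3, 11 and 15, by -0.33 ± 0.10, -0.27 ± 0.07 and -0.34 ± 0.07 (adjusted p = 0.027, 0.0077 and 0.0012). At week 15 it was at 13.9, 16.6 and 19.7 CPM in placebo and 11.5, 12.9 and 14.3 in wIFN-α livers, and 8 of 9 placebo biopsies lay above all wIFN-α biopsies. Its calls at weeks 11 and 15 held under every alternative run, while that of week 3 was lost without the muscle biopsies (-0.15) and with the lane as a covariate (-0.28). ATP5J2 itself was not called at any week, and the 2 could share reads. ATP5S was higher at week 0 alone (0.34 ± 0.10, adjusted p = 0.014, and 0.27 and not called with the replicate block), ATP5L2 was lower at week 3 alone (-0.31 ± 0.11, adjusted p = 0.045) and ATP5F1, a subunit of the peripheral stalk, at week 15 alone (-0.18 ± 0.07, adjusted p = 0.0396). The last 2 calls were also lost with the replicate block (-0.27 and -0.25).

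After treatment no member was called in the comparison of either week by edgeR. At week 19, edgeR called 0 of 84 members, with 4 at an unadjusted p under 0.05. Of all 14715 genes tested, it called 0%, and 1859 were at an unadjusted p under 0.05. DESeq2 called 170 genes at that week, 0 of them members. At week 23, edgeR called 0 of 85 members, with 18 at an unadjusted p under 0.05. Of all 14956 genes tested, it called 0%, and 2416 were at an unadjusted p under 0.05. DESeq2 called 51 genes at week 23 and again 0 members. In a fit with the replicate block and without the 2 biopsies that lacked hepatocyte genes, an alternative added after seeing the data, 2 members were higher and 1 lower at week 23. The share of all genes called in that fit is not given here, so these members cannot be set against it. Weeks 19 and 23 had 5 and 9 placebo and 6 and 6 wIFN-α biopsies.

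Whether the end of high dose treatment differed from the low dose was tested by subtracting the mean effect of weeks 0 and 3 from the effect of week 15. By edgeR, 0 of 87 members were called in either direction, where 2.04% of all 15666 genes tested were higher and 0.645% lower. At an unadjusted p under 0.05 there was 1 member, where there were 2458 of all genes. DESeq2 called 1 member, NDUFV3 (0.41 ± 0.13, adjusted p = 0.076 by edgeR). DESeq2 called 614 genes in all for this difference. With the replicate block 2 members were called, NDUFV3 and NDUFA11, and the share of all genes in that fit is not given here.

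How far the members moved over the same period without wIFN-α was tested as the change of the placebo animals from week -3 to week 15, with the animal as a block. More members passed the test here than in any of the weekly comparisons. Of the 87 members, 48 fell and 2 rose, where 16.2% of all 16232 genes fell and 16.5% rose. The median log2 change of the members was -0.33, compared with -0.04 for all genes. By complex, 23 of 39 genes of complex I, 5 of 10 of complex III, 8 of 15 of complex IV and 12 of 19 of complex V fell, but 0 of 4 of complex II, in which SDHD rose (0.30 ± 0.12, adjusted p = 0.036, a call lost in 10 of 16 alternatives). The other member that rose was NDUFB8 (0.30, adjusted p = 0.024). NDUFA11, a membrane arm subunit of complex I chosen here after its values were seen, fell by 0.94 ± 0.13 on the log2 scale, ATP5G1 by 0.59 ± 0.10, COX6B1 by 0.55 ± 0.13, UQCRQ by 0.55 ± 0.10, COX7B by 0.52 ± 0.09, COX4I1 by 0.49 ± 0.10 and UQCRH by 0.47 ± 0.08. ATP5G1 went from 103, 208 and 374 CPM (lowest, median, highest of 12) at week -3 to 88.7, 138 and 186 (of 9) at week 15, and COX4I1 from 59.6, 147 and 303 to 70.5, 109 and 141, so that the ranges overlapped.

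The count depended on the libraries that stood apart. Without placebo animal 1001, whose biopsy of week -3 had the lowest level of the members, 58 fell and 0 rose, with a median of -0.43. Of all genes, 17.34% fell and 13.92% rose in that fit. Without placebo animal 1008, 39 fell and 2 rose (median -0.30), where 16.44% and 14.97% of all genes did. Without the 2 biopsies of week -3 that lacked hepatocyte genes, 38 members fell, 3 rose and the median was -0.20. Of all genes, 19.69% fell and 17.87% rose there. Without placebo animal 1016, which gave 1 of these 2 biopsies, 29 fell and 3 rose (median -0.19), where 15.54% and 16.08% of all genes did. Leaving out all biopsies over 1% of reads on muscle genes, 33 fell and 3 rose (median -0.20), where 20.12% and 17.99% of all genes did. SDHD rose (0.42) and ATP5G1 (-0.51), COX4I1 (-0.40), COX6B1 (-0.42) and UQCRQ (-0.62) fell without the first 2 biopsies. In the fit of all animals, cytosolic ribosomal protein genes fell as the members did, with a median of -0.35. Of these 87 genes 64 fell and 2 rose, where 16.2% and 16.5% of all genes did. The summed level of the 12 hepatocyte genes was at a median of 167500 CPM (506 to 210100) in placebo livers at week -3 and 99110 CPM (77370 to 116200) at week 15, and that of 6 myeloid genes at 201 (51.9 to 255) and 322 CPM (259 to 364). The part of these movements in the members' fall was not tested.

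The wIFN-α animals, a comparison added after seeing the placebo change, moved in the same direction over the same weeks. Of their 87 members 58 fell and 2 rose, where 28% of all genes fell and 25.6% rose, with a median of -0.39 over the members and -0.07 over all genes. Without the 2 biopsies that lacked hepatocyte genes, 47 fell and 2 rose (median -0.28), where 29% and 27.27% of all genes did. With all biopsies, 79 of 87 cytosolic ribosomal protein genes fell (median -0.54), where 28% of all genes did. The hepatocyte sum had medians of 163500 and 96660 CPM at the 2 weeks, and the myeloid sum 219.7 and 359.9 CPM. UQCRQ fell by 0.86 ± 0.11, NDUFA6 by 0.66 ± 0.12, ATP5G2 by 0.64 ± 0.11 and ATP5G1 by 0.53 ± 0.11, while ATP5G3, ATP5A1 and COX6B2 were at 0.01 ± 0.12, 0.07 ± 0.11 and 0.17 ± 0.15 and were not called. In the placebo animals the last 3 were at -0.32 ± 0.11, -0.24 ± 0.10 and -0.42 ± 0.14, the first and the third called.

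The median level of the members in each biopsy, as log2(CPM + 0.5) relative to each gene's median at week -3, showed the same by animal. It was lower at week 15 than at week -3 in 7 of 9 placebo animals (differences from -1.44 to 0.699, median -0.182) and in 8 of 8 wIFN-α animals (-1.19 to -0.0817, median -0.364). Leaving out placebo animals 1001, 1008 and 1016 and wIFN-α animal 1018, the differences ran from -0.308 to 0.0385 and from -0.556 to -0.0817. The 2 biopsies without hepatocyte genes had the highest levels of their groups at week -3, 1.22 and 0.951. The lowest were those of placebo animal 1001 at week -3 (-0.975) and placebo animal 1008 at weeks 11 and 15 (-0.793 and -0.687), in which the level of the cytosolic ribosomal protein genes was also low (-1.07, -1.07 and -0.811). Complex II was less low than the whole in these 3 biopsies, at -0.486, -0.0721 and -0.268.

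**Figure D5:**
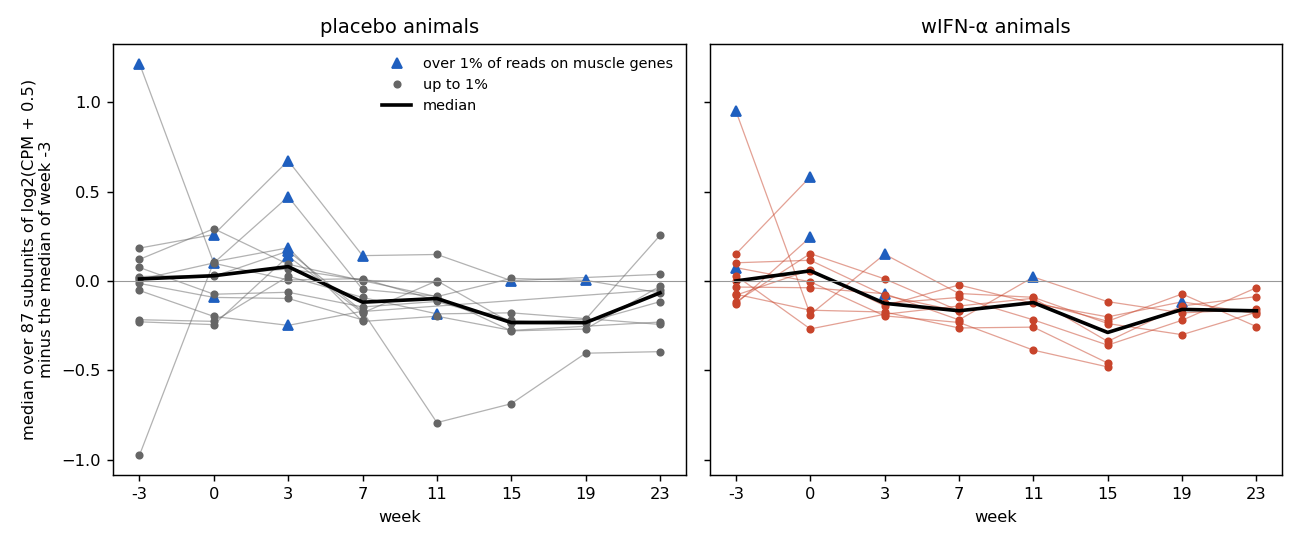
Median over the 87 members of log2(CPM + 0.5) minus the gene's median at week -3 (y axis) by week (x axis) in placebo animals (left) and wIFN-α animals (right), with thin lines joining biopsies of 1 animal, blue triangles for biopsies with over 1% of reads on muscle genes and black lines at the group medians. The group medians at week 15 are -0.233 (placebo) and -0.288 (wIFN-α), and the 2 highest triangles of week -3 are the biopsies without hepatocyte genes.

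Some genes that work beside the subunits, named here mainly because they were called at week 15, had larger log2 fold changes than most members. At week 15, 77.8% of the carriers, 90.6% of the assembly factors and 100% of the citric acid cycle genes were within 1.5-fold. Of the biogenesis regulators, mitochondrial DNA maintenance genes and mitochondrial ribosomal protein genes, 76.9%, 100% and 93.4% were. Of all genes 73.8% were within 1.5-fold. Of 9 carriers and subunits that the rule did not cover, 2 were higher at week 15 and none was lower, where 22.3% of all genes were higher and 19.2% lower. ATPIF1, the inhibitor that keeps ATP synthase from running backwards, was at 33.4, 35.0 and 52.9 CPM in placebo and 64.7, 81.9 and 89.5 in wIFN-α livers at week 15. At week 0 it was at 23.04, 34.4 and 43.9 CPM against 60.1, 72.1 and 93.5, so that the groups did not overlap at either week. Its log2 fold change was 1.16 ± 0.11, 1.08 ± 0.08, 1.15 ± 0.15 and 1.04 ± 0.10 at weeks 0, 7, 11 and 15, all called, and 0.41 ± 0.15 at week 3 (adjusted p = 0.069). CYCS, the electron carrier cytochrome c, was higher at the same 4 weeks (0.77 ± 0.17, 0.84 ± 0.12, 0.64 ± 0.14 and 0.90 ± 0.15) and at 0.14 ± 0.23 at week 3. At week 15 CYCS was at 29.5, 44.5 and 68.1 CPM in placebo and 67.0, 82.2 and 113 in wIFN-α livers, with 7 of 8 wIFN-α biopsies above all placebo biopsies. CYC1, the cytochrome of complex III to which CYCS binds, was not called (-0.12 ± 0.14 at week 15).

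Of 32 assembly factors in the files, 4 were higher and 5 lower at week 15, both below the shares of all genes (22.3% and 19.2%). NUBPL, which delivers iron-sulphur clusters to complex I, was higher at all 5 treatment weeks (0.84 ± 0.15, 0.68 ± 0.17, 1.14 ± 0.10, 1.08 ± 0.15 and 1.11 ± 0.14). SCO2, a copper chaperone of complex IV, was higher at week 15 (1.05 ± 0.22), and SDHAF1, which inserts clusters into SDHB, was lower (-0.66 ± 0.15). Of 17 genes of the citric acid cycle and pyruvate dehydrogenase, 1 was higher and 2 lower at week 15, both below those shares: SUCLG2 (0.28 ± 0.11), CS, the citrate synthase (-0.48 ± 0.13), and DLAT (-0.49 ± 0.13). The call of SUCLG2 was lost in 21 of 27 alternatives, and those of CS and DLAT with the replicate block (-0.74 and -0.63). The 76 mitochondrial ribosomal protein genes tested had 5 higher and 15 lower at week 15, below the 22.3% of all genes that were higher and near the 19.2% that were lower, with the largest values in MRPL32 (1.34 ± 0.08), MRPL19 (1.28 ± 0.17) and MRPS6 (1.08 ± 0.16), all 3 higher.

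Of 13 regulators of mitochondrial biogenesis, 1 was higher and 4 lower at week 15 (22.3% and 19.2% of all genes). The coactivator PPARGC1B was at 5.67, 7.68 and 10.2 CPM in placebo and 1.77, 2.84 and 4.11 in wIFN-α livers at week 15, with no overlap, and its log2 fold changes at weeks 7, 11 and 15 were -1.36 ± 0.15, -1.11 ± 0.22 and -1.40 ± 0.17. The nuclear receptor PPARA was lower at all 5 treatment weeks (-0.93 ± 0.10 at week 15), as was TFB2M, a transcription factor of mitochondrial DNA (-0.84 ± 0.16 at week 15), although with the replicate block neither was called at week 3 (-0.44 and -0.45). PPARGC1A, the better known coactivator, was higher at week 0 (0.44 ± 0.16, adjusted p = 0.032) and week 15 (0.54 ± 0.20, adjusted p = 0.0399), with overlapping ranges (14.8 to 31.1 CPM in placebo and 21.4 to 60.9 in wIFN-α livers at week 15), and its call of week 0 was lost in 10 of 33 alternatives and that of week 15 in 13 of 27, down to 0.32 without wIFN-α animal 1020. PPRC1 was higher at weeks 0 and 7 (0.64 ± 0.12 and 0.44 ± 0.13) and ESRRA lower at week 11 (-0.32 ± 0.10, but -0.02 and not called with the replicate block). NRF1, GABPA and TFAM, which drive the nuclear and mitochondrial programmes of the chain, were not called at any week, and at week 15 were at 0.19 ± 0.09, 0.003 ± 0.08 and 0.06 ± 0.09. Of 11 genes that maintain mitochondrial DNA, 4 were lower (19.2% of all genes) and none higher (22.3%) at week 15, among them DGUOK (-0.58 ± 0.13), C10orf2, the helicase Twinkle (-0.55 ± 0.12), and the polymerase POLRMT (-0.36 ± 0.10, and -0.22 and not called with the replicate block).

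Markers of other cells were compared as summed levels, without a test. At week 15 the ranges of the groups overlapped for all of the lists below except the T cell genes. At week 15 the summed level of 7 T cell genes such as CD3E and CD2 was 48.2 to 94.3 CPM in placebo and 119 to 248 in wIFN-α livers, and that of 5 cytotoxic genes such as GZMA 3.16 to 9.10 and 8.90 to 37.9 CPM. The 12 hepatocyte genes summed to 77370 to 116200 CPM and 73020 to 141700 CPM, and the 24 muscle genes to 227 to 11670 and 268 to 5414 CPM. Over all biopsies compared, MYH4 was at a median of 0. Proliferation genes (6 listed) summed to 14.04 to 38.9 and 18.7 to 164.5 CPM at week 15, although at week 0 they were at 16.6 to 71.1 in placebo and 7.63 to 45.7 in wIFN-α livers. The 6 myeloid genes were at 259 to 364 and 343 to 474 CPM at week 15, the 4 neutrophil genes at 5.04 to 38.3 and 9.2 to 48.8, and the 4 erythrocyte genes at 51.2 to 357 and 64.4 to 409. The 6 B and plasma cell genes were at 304 to 1044 CPM in placebo and 600.1 to 1986 in wIFN-α livers at week 0, and at 290.5 to 660.3 and 343 to 763 at week 15. The part of these cells in the respiratory chain results was not tested.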

How the data were processed

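The authors made poly(A)-selected libraries, sequenced them from both ends and mapped the reads with Bowtie2 to a woodchuck transcriptome that they had assembled in part from the same animals. SAMtools was used for the counting, and whether strand was used and the versions are not given in the sources used here. The deposited expected counts per gene and run had not been normalised by the authors, and 118 of 3368022 nonzero entries are fractions. The RPKM values that the authors deposited beside them served only to derive contig lengths. Paralogues, pseudogenes and read-through transcripts (ATP5G1 to ATP5G3, the COX6A, COX6B and COX7A genes, ATP5L and ATP5L2, UQCRB and UQCRBP1, ATP5J2-PTCD1) could share reads.

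Runs of 1 biopsy were added up and rounded, which turned 203 runs into 164 biopsies. Of these 149 were used, whereas 7 of wIFN-α animal 1004, which the study left out as likely to be clearing the virus already, and 8 of other weeks were not. Weeks are numbered as in the study, 1 below the positive weeks of the labels. The study's response groups are not in the labels and were not used.

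The weekly comparisons were each fitted to the biopsies of that week in edgeR 4.0.16 under R 4.3.3 (filterByExpr, TMM, quasi-likelihood test), with Benjamini-Hochberg adjustment over all genes tested and a threshold of 0.05. The difference of effects was fitted to weeks 0, 3 and 15, and the changes from week -3 to week 15 to all weeks with the animal as block. Standard errors are the log2 fold change divided by the square root of its F statistic. The fits were tested on simulated data. Alternatives were DESeq2 1.42.0, sex as covariate, RLE normalization, genes left unfiltered, 1 run (the deepest) for each biopsy, muscle biopsies left out (over 1% of reads on muscle genes), animal 1004 included, a fold limit of 1.5, other low dose weeks, the replicate block and single animals left out. Those with the lane, those without the biopsies low in hepatocyte genes, the single animals of weeks -3 and 11 and of the placebo change, and placebo animal 1008 in the difference of effects were added after seeing the data. The labels give the animal of each biopsy. Deviations from the group mean correlated between biopsies of 1 animal (median r 0.311, above 0.1 in 345 of 450 pairs). Between biopsies of different animals the median r was -0.0122, and it was above 0.1 in 2926 of 9201 pairs. In the weekly comparisons p-values measure the spread between animals. The difference of effects took the biopsies of 1 animal at different weeks as independent. In the fits with the animal as block, p-values measure the spread between biopsies within animals.

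Members and lists were chosen with earlier results of these data known. The rule named members called in 1 direction in at least 3 of the 5 treatment weeks, the highest and lowest member of each complex at weeks 0 and 15, the 4 SDH genes, isoform pairs, members with a called difference of effects, 7 regulators and up to 3 called genes of each pathway list at week 15. Other members were named after their values were seen. Figures were drawn with matplotlib 3.10.9 under Python 3.11.15.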

Additional observations from a re-analysis of the deposited data

Results flagged for a closer look

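Within-group outliers were looked for in 34 groups of 4 to 10 biopsies by Dixon's test, which flags about 1 in 20 groups by chance, and 5 were found. In wIFN-α livers of week 7, ATP5A1 was at 617.9 CPM in animal 1003, above the 495.8 to 547 CPM of the others, and ATP5G3 at 59.27 CPM in animal 1012, below their 82.44 to 99.01 CPM. In placebo livers of week 11, COX6B2 was at 9.218 CPM in animal 1021, above the 4.922 to 7.137 CPM of the others. The median level of the members in placebo animal 1008 was -0.793 at week 11, where the others were at -0.1974 to 0.1483, and -0.6872 at week 15, where they were at -0.2795 to 0.0142 (log2, relative to week -3).

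Animal 1004 of the wIFN-α group, left out of the comparisons, had COX6B2 at 15.31, 14.13, 16.66, 12.1 and 13.18 CPM of all reads, without TMM scaling, at weeks 0, 3, 7, 11 and 15. The highest placebo values on this scale were 11.24, 11.63, 7.524, 8.857 and 8.395, so that this animal lay above all placebo animals at each of the 5 weeks.

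Among the pathway genes, 2 had an effect at week 15 that differed from the mean of weeks 0 and 3 by edgeR: YY1, a transcription factor, by -0.3299 (SE 0.0854, adjusted p = 0.0191), and DGUOK, which makes DNA precursors in mitochondria, by -0.5503 (SE 0.159, adjusted p = 0.0432).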

How the results depend on the processing

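Of 175 alternative counts of called members, 142 were within 1.5 times the reported count and 33 were not, and of 2219 alternative values for single genes, 1997 kept their direction and call, 222 lost the call and 0 reversed. For weeks 0, 3, 7, 11 and 15, where 4, 14, 12, 5 and 9 members were called, the replicate block gave 2, 6, 1, 2 and 4. The replicate block without the 2 biopsies low in hepatocyte genes (added after seeing the data) gave 2, 23, 1, 4 and 5 at these weeks. At week 23 it gave 3, where 0 were called, and the share of all genes in that fit is not given here. The lane as covariate (also added) gave 1, 1, 4 and 3 at weeks 0, 3, 7 and 11, and a fold change over 1.5 gave 2, 2, 1, 1 and 1. Without the muscle biopsies 7 were called at week 0 and 5 at week 3, and with the deepest run of each biopsy 15 at week 15. The difference of effects, at 0, came to 1 with RLE, with no filter, without the muscle biopsies and with DESeq2, and to 2 with the replicate block.

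With single animals left out, 4 to 7 members were called at week 0 (7 without wIFN-α animal 1023), 11 at week 11 without placebo animal 1008, 6 to 19 at week 15 (6 without wIFN-α animal 1002, 19 without placebo animal 1008), 0 at week 19 and at week -3 without placebo animal 1001, 0 to 1 for the difference of effects (1 without wIFN-α animal 1014 or placebo animal 1008), and, added after seeing the data, 32 to 58 for the placebo change (50 with all animals, 32 without animal 1016, 58 without animal 1001). The cause of these moves was not tested. At week 19 there were only 5 placebo biopsies, which limits what could be called. Leaving out single animals was not run at weeks 3, 7 and 23.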

Other observations

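The 8 biopsies of other weeks entered no comparison. The members held 0.8525%, 0.7048% and 0.5705% of the reads in the biopsies labelled as taken at death from wIFN-α animals 1020, 1023 and 1007, and 0.6904% in that of placebo animal 1024. ATPIF1 was at 65.17, 47.06, 95.12 and 56.7 CPM of all reads, without TMM scaling, in these 4 biopsies, and COX6B2 at 7.265, 8.385, 12 and 7.603. In the other 4 biopsies the members held 0.5662% and 0.5595% (placebo animals 1010 and 1017), 0.5425% (wIFN-α animal 1002) and 0.7199% of the reads (wIFN-α animal 1006).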
